A study of Homo sapiens with 18 samples.

Results

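The genes described here are those whose array feature carries a gene symbol starting with HSPA, HSPB, HSPD, HSPE, HSPH, HSP90A or DNAJ, without HSPA5, DNAJB9 and DNAJC3. A feature is a transcript cluster of the Affymetrix Human Gene 2.0 ST array, and where a gene had several, the feature with the highest mean over the 18 arrays was kept. This gave 21 genes (34 features) of 14884 distinct symbols (16098 features with 1 symbol). The only symbols starting with DNAJ were those of 2 antisense RNAs, DNAJC9-AS1 and DNAJC27-AS1, so DNAJ co-chaperones were not analysed here, and neither were HSPA8, HSPE1, HSP90AA1 and HSP90AB1. The set therefore holds mostly heat shock protein genes, chiefly of the Hsp70 (HSPA) family. Besides the antisense RNAs, the rule also took in HSPB2-C11orf52, a non-coding RNA, and HSPBAP1, which is not itself a heat shock protein. DNAJC9-AS1, HSPB2-C11orf52 and HSPBAP1 were tested and are counted among the members below.

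RNA was measured in 6 groups of 3 arrays. SKBR3 cells, a HER2-positive breast cancer line, received an antisense oligonucleotide (ASO) targeting LINC01269, a long non-coding RNA (lncRNA), or a control ASO. MDA-MB-231 cells and MDA-MB-468 cells, both triple-negative breast cancer lines, received an ASO targeting another lncRNA, AL078604.2, or a control ASO. All groups, controls included, were given a GapmeR, an ASO that recruits RNase H to its target RNA, at 15 nM for 48 h with the TransIT-BrCa reagent, and were grown with serum. The design asks how knockdown of each lncRNA alters gene expression in its line. Neither target has a named feature, so its knockdown was not analysed here. The labels do not say whether arrays of a group came from separate cultures, so p-values measure only the spread between arrays, which may be technical.

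Correlations between arrays of a group were 0.985 to 0.992, and no array held the same values as another. Array medians were 4.56 to 4.63 log2 for the label SKBR3, 5.41 to 5.43 for MDA-MB-231 and 5.21 to 5.24 for MDA-MB-468, so log2 levels were not compared between lines. The 6 named epithelial markers of 7 listed had a median percentile of 97.6 to 98.2 among all features of the control arrays in the 3 lines. The lowest of them was KRT8, at 77.6 in SKBR3, 74 in MDA-MB-231 and 75.5 in MDA-MB-468. The markers of the lines fitted the labels only in part. The 4 named SKBR3 markers had median percentiles of 96.6, 96 and 95.9 in control arrays labelled SKBR3, MDA-MB-231 and MDA-MB-468, the 4 named MDA-MB-231 markers 78.4, 79.9 and 79.8 in the same order, and the 2 named MDA-MB-468 markers 84.3, 85.8 and 92.2. KRT5, a basal keratin of MDA-MB-468 cells, stood at 69.6, 73.4 and 85.8, and its MDA-MB-468 control arrays did not overlap the others. EGFR, the other named MDA-MB-468 marker, stood at 99, 98.2 and 98.7 and was highest in SKBR3. The label MDA-MB-231, a mesenchymal-like line known for high VIM, went with percentiles of 99.2 for EPCAM, 98.1 for ESRP1 and 76.6 for VIM in its control arrays, which goes against that label. AXL, another MDA-MB-231 marker, was highest under that label, at 83.2 against 80.7 in SKBR3 and 60.1 in MDA-MB-468. VIM, MSN and LOX, the other named markers of that list, were highest in MDA-MB-468. Line names below are therefore those of the labels. ERBB2, which defines SKBR3 cells, has no named feature. GRB7, a named SKBR3 marker, stood at 79.1, 81.3 and 78.8 in control arrays labelled SKBR3, MDA-MB-231 and MDA-MB-468, and was thus not highest in SKBR3. In the same order KRT18 stood at 98.7, 98.5 and 97, KRT19 at 98.3, 98 and 98, and TFAP2C at 94.8, 94 and 94.8. The single named leukocyte marker of 5 stood at percentiles 35.6 to 43.7, and the 2 named fibroblast and endothelial markers of 6 at 32.4 to 51.9. In bulk RNA, fewer cells of a type and less RNA per cell cannot be told apart.

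Heat shock proteins are molecular chaperones that bind unfolded or newly made proteins. The Hsp70 proteins (HSPA) bind and release clients in a cycle driven by ATP, which J-domain proteins (DNAJ) start and nucleotide exchange factors such as the Hsp110 proteins (HSPH1, HSPA4, HSPA4L) reset. Small heat shock proteins (HSPB) hold aggregating proteins without ATP, and HSPD1 is the chaperonin that folds proteins in the mitochondrial matrix. Under heat or other proteotoxic stress the transcription factor HSF1 binds heat shock elements, alternating GAA and TTC units, in the promoters of the inducible members, while the constitutive members serve the growing cell without stress. Tumour cells often hold high levels of both kinds. The 21 genes were divided into 9 heat-inducible members (HSPA1A, HSPA1B, HSPA6, HSPA7, HSPA4L, HSPH1, HSPD1, HSPB1 and HSPB8), 3 constitutive core members (HSPA4, HSPA9 and HSPA14) and 9 others.

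Promoters are shown first, because heat shock elements are where induction is known to act, and the division above was made without them. RefSeq promoter windows (GRCh38.p14, 250 bases before to 50 bases after a start site) were matched for 17 of the 21 genes (22 windows), and HSPA7, HSPA12B, HSPA14 and HSPB2-C11orf52 had none. A heat shock element of 2 units was searched as GAANNTTC or TTCNNGAA and of 3 units as GAANNTTCNNGAA or TTCNNGAANNTTC. Each 2-unit form reads the same on both strands, the 3-unit forms are each other's reverse complement, and each 3-unit match also contains both 2-unit forms. At least 1 window held 2 units in 7 of the 8 matched heat-inducible genes, 1 of the 2 matched constitutive genes (HSPA9) and 2 of the 7 others (HSPB3 and HSPA1L), against 16.2% of all 27305 genes with a window. Counted by window it was 7 of 11, 1 of 2 and 2 of 9, against 13.5% of all 35116 windows. HSPA1A and HSPA1B, which are close copies, were counted separately. Only HSPA6 and HSPD1 of the 17 held 3 units, against 0.608% of all genes. Of the heat-inducible genes, HSPH1 had no match, which says only that these letters are not in its window. The match of HSPA1L lies at chr6:31815437-31815444 and is the same stretch as that of HSPA1A, its neighbour on the other strand, with 259 bases between the genes.

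The windows below belong to genes on which the results turn, or hold 3 units, and are written 5′ to 3′ with matched units in capitals. Those of HSPA1A (chr6:31815293-31815592, plus strand) and HSPA1B (chr6:31827488-31827787, plus strand) were identical at 277 of 299 bases when shifted by 1 base. HSPA4L is shown at the window of its 3 that held a match (chr4:127782072-127782371, plus strand). HSPD1 is shown likewise (the second of 2, chr2:197499791-197500090, minus strand), and HSPA6 has 1 window (chr1:161524290-161524589, plus strand).
HSPA1A: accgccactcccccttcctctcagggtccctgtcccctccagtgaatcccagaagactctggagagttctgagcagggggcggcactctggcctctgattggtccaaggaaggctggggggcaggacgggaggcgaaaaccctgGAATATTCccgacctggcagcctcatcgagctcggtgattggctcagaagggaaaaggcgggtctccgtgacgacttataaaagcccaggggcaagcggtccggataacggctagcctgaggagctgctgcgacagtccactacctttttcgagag
HSPA1B: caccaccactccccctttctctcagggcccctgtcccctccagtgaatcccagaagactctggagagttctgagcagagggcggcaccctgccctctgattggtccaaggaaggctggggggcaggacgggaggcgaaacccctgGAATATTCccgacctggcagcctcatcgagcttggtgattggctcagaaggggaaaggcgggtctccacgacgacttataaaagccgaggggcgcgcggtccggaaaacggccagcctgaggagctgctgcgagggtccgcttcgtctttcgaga
HSPA4L: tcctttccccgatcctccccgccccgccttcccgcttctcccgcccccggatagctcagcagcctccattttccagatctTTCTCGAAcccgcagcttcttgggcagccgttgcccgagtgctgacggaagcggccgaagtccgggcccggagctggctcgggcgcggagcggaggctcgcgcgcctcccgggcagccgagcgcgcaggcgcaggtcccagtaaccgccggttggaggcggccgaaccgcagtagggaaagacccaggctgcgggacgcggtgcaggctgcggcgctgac
HSPD1: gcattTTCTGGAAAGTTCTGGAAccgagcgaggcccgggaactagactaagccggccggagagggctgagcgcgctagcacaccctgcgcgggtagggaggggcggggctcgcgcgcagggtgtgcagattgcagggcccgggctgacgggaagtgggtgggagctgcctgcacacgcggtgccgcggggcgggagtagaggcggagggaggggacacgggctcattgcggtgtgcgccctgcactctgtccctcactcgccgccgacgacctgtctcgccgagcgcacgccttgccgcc
HSPA6: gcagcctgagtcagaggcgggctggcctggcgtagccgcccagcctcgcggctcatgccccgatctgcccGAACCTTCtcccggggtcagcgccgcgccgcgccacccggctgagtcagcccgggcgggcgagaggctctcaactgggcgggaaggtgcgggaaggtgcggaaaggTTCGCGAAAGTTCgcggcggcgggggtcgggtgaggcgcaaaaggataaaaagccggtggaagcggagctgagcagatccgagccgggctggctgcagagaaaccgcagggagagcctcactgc
The single unit pair of HSPA1A and of HSPA1B reads GAATATTC in both, whereas HSPD1 has a run of 4 units, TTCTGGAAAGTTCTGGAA, and HSPA6 a run of 3, TTCGCGAAAGTTC. These matches are letters in a window and were not measured as binding.

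Of the 21 genes, 17 were tested, since in 1 or more of the 6 groups they averaged above the median feature. HSPA7 did so in 4 groups, those labelled MDA-MB-231 and MDA-MB-468, and the other 16 did in all 6. The genes not tested were HSPA6, HSPB8, HSPB3, a small heat shock protein of muscle, and DNAJC27-AS1, which stayed below that median in every group. No tested member passed limma's test (adjusted p up to 0.05) for any ASO. In each of the 3 comparisons, 16 of the 17 members had a 95% interval within a 1.5-fold change, against 81.8% (SKBR3), 83% (MDA-MB-231) and 82.6% (MDA-MB-468) of all 29855 features tested. The exceptions were HSPA7 in SKBR3, HSPA4L in MDA-MB-231 and HSPA12B in MDA-MB-468. The fit lets the spread depend on level, and all features were not matched to the members for level.

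**Figure D1:**
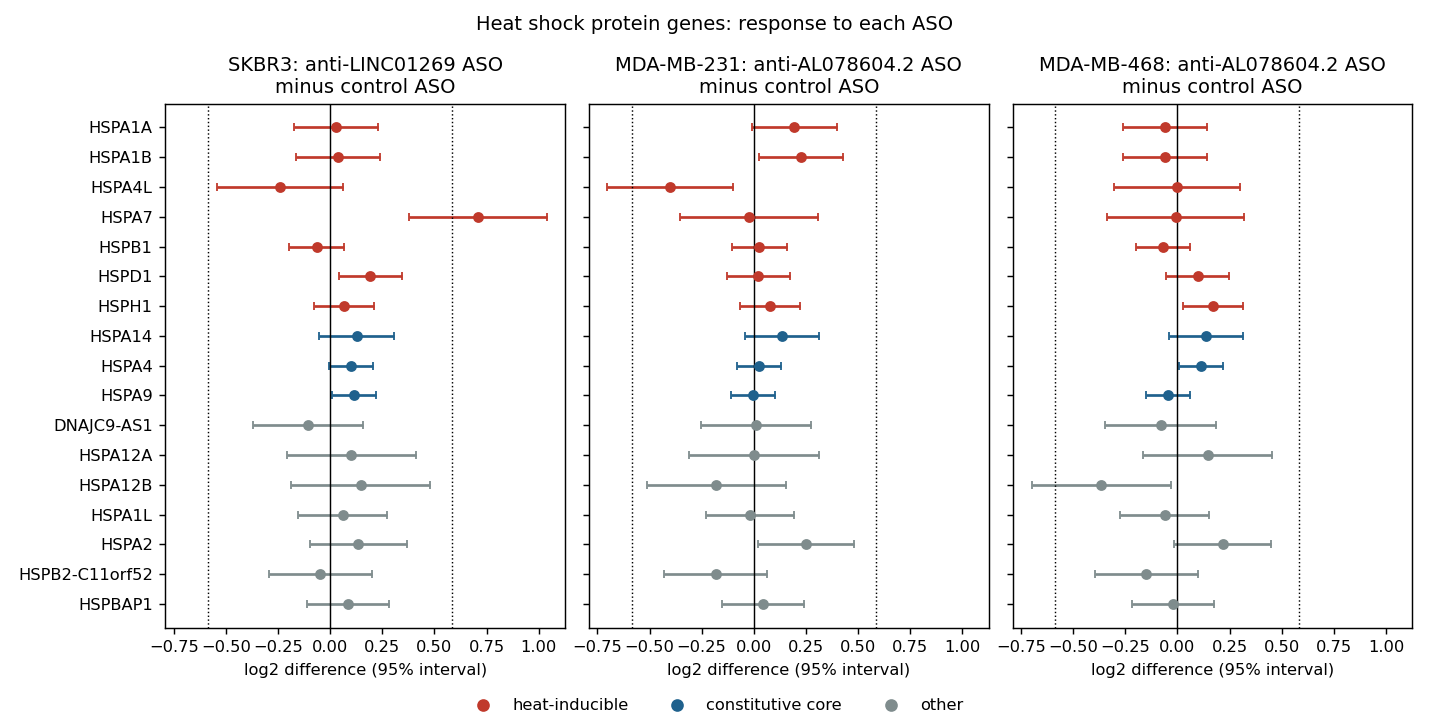
Log2 difference (anti-lncRNA ASO minus control ASO) of the 17 tested genes in the arrays labelled SKBR3, MDA-MB-231 and MDA-MB-468, with limma's 95% intervals, 3 arrays per group. Dotted lines mark a 1.5-fold change, which only the intervals of HSPA7 (SKBR3), HSPA4L (MDA-MB-231) and HSPA12B (MDA-MB-468) cross.

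In the arrays labelled SKBR3, the anti-LINC01269 ASO was followed by differences of less than 0.25 log2 in every tested member but HSPA7. Of 17 members 0 passed, against 0% of all features, while 3 had an unadjusted p under 0.05 and were higher (HSPA7, HSPD1 and HSPA9; 5.37% of all features) and 0 had one and were lower (3.79% of all features). The anti-LINC01269 and control arrays did not overlap for 3 members that were higher (HSPA7, HSPD1 and HSPA4; 7.28% of all features) and 1 that was lower (HSPA4L; 4.26%). The median difference was 0.085 log2 over the tested members and 0.014 over all features tested, with 13 of 17 members (76.5%) and 54% of all features above 0. Over all 21 members the median was 0.065.

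HSPA7, a transcribed pseudogene of the strictly stress-induced HSPA6, showed the largest log2 difference of the set. It measured 4.71, 4.26 and 4.49 log2 in anti-LINC01269 arrays, against 3.66, 3.90 and 3.78 in control arrays. All 3 anti-LINC01269 arrays lay above all 3 control arrays, but in both groups the mean was below the median of all features, and HSPA7 was tested only because of its level in the other lines. Its mean percentile in the SKBR3 control arrays was 35.5, beside 35.6 for the leukocyte marker CD14 and 32.4 for the endothelial marker PECAM1. The files used here do not mark which features are above background, so no fold is given. The difference between the deposited values was 0.71 log2 (SE 0.156, 95% interval 0.38 to 1.04) and did not pass (limma adjusted p = 0.313). It passed when anti-LINC01269 replicate 2 was left out (0.82, adjusted p = 0.0343), an omission under which 231 of all features (0.774%) passed. HSPA6, 79277 bases from HSPA7 on chromosome 1, measured 4.48, 3.96 and 4.06 in anti-LINC01269 arrays, against 4.11, 4.42 and 4.32 in control arrays. The HSPA6 values overlapped between the groups.

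HSPD1, the mitochondrial chaperonin, measured 9.45, 9.23 and 9.43 log2 in anti-LINC01269 arrays, against 9.21, 9.19 and 9.13 in control arrays. The groups did not overlap, yet anti-LINC01269 replicate 2 lay just above the highest control. The difference was 0.19 log2 (SE 0.0713, limma adjusted p = 0.451). HSPA9, the mitochondrial Hsp70 that pulls imported proteins into the matrix, measured 11.35, 11.18 and 11.30 in anti-LINC01269 arrays and 11.11, 11.20 and 11.18 in control arrays (0.12 log2, SE 0.0499, adjusted p = 0.507). Here again replicate 2 of the anti-LINC01269 arrays was the low one, and the groups overlapped.

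The inducible cytosolic Hsp70 genes were nearly level in the arrays labelled SKBR3. HSPA1A measured 11.55, 11.46 and 11.42 log2 in anti-LINC01269 arrays, against 11.42, 11.43 and 11.50 in control arrays, a difference of 0.027 with a 95% interval of -0.18 to 0.23. HSPA1B differed by 0.040 (-0.16 to 0.24). The Hsp110 gene HSPH1 differed by 0.065 (-0.079 to 0.21), and the small heat shock protein gene HSPB1 by -0.065 (-0.20 to 0.064). HSPA4L, an Hsp110 protein induced by heat and osmotic stress, measured 6.68, 6.84 and 6.93 in anti-LINC01269 arrays and 7.03, 7.13 and 7.0 in control arrays. Its groups did not overlap, at -0.24 log2 (SE 0.143, limma adjusted p = 0.647). The median over the 7 tested heat-inducible members was 0.040 log2, but -0.011 after quantile normalization within the line and -0.010 without anti-LINC01269 replicate 1.

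The 3 constitutive core genes were each above 0 in the arrays labelled SKBR3, and none passed. HSPA4, the main constitutive Hsp110, measured 9.26, 9.20 and 9.33 log2 in anti-LINC01269 arrays, against 9.19, 9.18 and 9.13 in control arrays (0.098, SE 0.0497, limma adjusted p = 0.579). HSPA14, which sits on the ribosome with a J-domain partner, differed by 0.13 (SE 0.0847, adjusted p = 0.684). Among the 7 other tested genes the differences ran from -0.11 (DNAJC9-AS1) to 0.15 (HSPA12B).

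In the arrays labelled MDA-MB-231, the inducible cytosolic Hsp70 genes HSPA1A and HSPA1B were higher, and HSPA4L was lower, after the anti-AL078604.2 ASO without overlap between groups, and none of these differences passed. Of 17 members 0 passed, against 0.171% of all features, while 2 had an unadjusted p under 0.05 and were higher (HSPA1B and HSPA2; 4.9% of all features) and 1 had one and was lower (HSPA4L; 4.45%). Groups did not overlap for 3 members that were higher (HSPA1A, HSPA1B and HSPA2, against 9.28% of all features) and 1 that was lower (HSPA4L, against 7.87%). HSPA1A and HSPA1B are close copies, so the counts of members here take 1 signal as 2. The median difference was 0.021 log2 over the tested members and 0.010 over all features tested, with 11 of 17 members (64.7%) and 53% of all features above 0. The median over all 21 members was the same as over the 17.

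HSPA1A and HSPA1B encode the major stress-inducible cytosolic Hsp70. HSPA1A measured 12.34, 12.34 and 12.32 log2 in anti-AL078604.2 arrays of MDA-MB-231, against 12.03, 12.15 and 12.24 in control arrays, a difference of 0.19 (SE 0.0957, 95% interval -0.0079 to 0.40, limma adjusted p = 0.565). HSPA1B measured 12.29, 12.30 and 12.28 in anti-AL078604.2 arrays, against 11.97, 12.03 and 12.19 in control arrays, a difference of 0.23 (SE 0.0951, 0.024 to 0.43, adjusted p = 0.449), or 1.17-fold. The anti-AL078604.2 arrays were nearly identical (SD 0.0139 for HSPA1A and 0.0111 for HSPA1B, n = 3), whereas the control arrays were spread (SD 0.107 for HSPA1A and 0.114 for HSPA1B, n = 3). The 2 genes are close copies whose kept features differed by at most 0.12 log2 on any of the 18 arrays, so they count as 1 signal rather than as separate results. HSPA1A had 5 features with 3 distinct sets of values and HSPA1B 5 features with 5, and over them the difference ran from 0.19 to 0.21 for HSPA1A and from 0.22 to 0.26 for HSPA1B.

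HSPA4L measured 7.67, 7.55 and 7.67 log2 in anti-AL078604.2 arrays of MDA-MB-231, against 8.24, 7.98 and 7.87 in control arrays. Every anti-AL078604.2 array was below every control array. The difference was -0.40 log2 (SE 0.143, 95% interval -0.70 to -0.099), 0.757 of the control level, and did not pass (limma adjusted p = 0.323). HSPA2, a Hsp70 of male germ cells that is also found in some tumours, measured 7.14, 7.17 and 7.13 in anti-AL078604.2 arrays and 6.97, 6.72 and 7.0 in control arrays (0.25, SE 0.109, adjusted p = 0.475). Its groups did not overlap either.

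Other inducible members were nearly level in the arrays labelled MDA-MB-231. HSPH1 measured 11.66, 11.82 and 11.85 log2 in anti-AL078604.2 arrays, against 11.72, 11.67 and 11.70 in control arrays (0.079, 95% interval -0.065 to 0.22). HSPB1 differed by 0.027 (-0.10 to 0.16), HSPD1 by 0.021 (-0.13 to 0.17) and HSPA7 by -0.023 (-0.35 to 0.31). The constitutive genes HSPA4 (0.024, -0.081 to 0.13) and HSPA9 (-0.0034, -0.11 to 0.10) had the narrowest intervals of the set, and HSPA14 differed by 0.13 (-0.044 to 0.31). The 7 other tested genes ran from -0.18 (HSPB2-C11orf52, a non-coding read-through transcript) to 0.25 (HSPA2).

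Among arrays labelled MDA-MB-468, the Hsp110 genes HSPH1 and HSPA4 were higher after the anti-AL078604.2 ASO without overlap between groups, by 0.17 and 0.11 log2, and did not pass. Of 17 members 0 passed, against 0.0067% of all features, while 2 had an unadjusted p under 0.05 and were higher (HSPH1 and HSPA4; 5.25% of all features) and 1 had one and was lower (HSPA12B; 5.24%). Groups did not overlap for 2 tested members that were higher (HSPH1 and HSPA4; 8.41% of all features) and 0 that were lower (8.5%). The median difference was -0.022 log2 over the tested members and -0.0035 over all features tested, with 6 of 17 members (35.3%) and 49.1% of all features above 0. Without anti-AL078604.2 replicate 3 the members' median was 0.065.

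HSPH1, which resets Hsp70 by exchanging its nucleotide, measured 11.52, 11.68 and 11.67 log2 in anti-AL078604.2 arrays of MDA-MB-468, against 11.50, 11.41 and 11.45 in control arrays (0.17, SE 0.0683, limma adjusted p = 0.394), or 1.12-fold. HSPA4 measured 10.58, 10.52 and 10.53 in anti-AL078604.2 arrays, against 10.42, 10.43 and 10.44 in control arrays (0.11, SE 0.0497, adjusted p = 0.443). In both genes the lowest anti-AL078604.2 array stood above the highest control array. HSPA12B, a distant Hsp70 relative known from endothelial cells, measured 6.06, 5.53 and 5.81 in anti-AL078604.2 arrays and 6.21, 6.28 and 6.0 in control arrays, with overlap (-0.37, SE 0.158, adjusted p = 0.431).

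The tested members varied most, at the median, among the anti-AL078604.2 arrays of MDA-MB-468. The median SD over the 17 tested members was 0.171 log2 in these arrays, against 0.0625 in the MDA-MB-468 control arrays and 0.0642 to 0.0895 in the other 4 groups. HSPA1A measured 12.03, 11.82 and 11.46 in anti-AL078604.2 arrays, against 11.80, 11.83 and 11.85 in control arrays. Replicate 1 lay above and replicate 3 below all 3 controls, so the mean difference of -0.059 (95% interval -0.26 to 0.14) averages arrays that stood on opposite sides. HSPA4L showed the opposite order, with 7.63, 8.19 and 8.36 in anti-AL078604.2 arrays and 8.15, 8.05 and 7.98 in control arrays (-0.00047, -0.30 to 0.30). HSPB1 measured 12.52, 12.41 and 12.25 in anti-AL078604.2 arrays, against 12.45, 12.47 and 12.48 in control arrays (-0.070, -0.20 to 0.060). The SD over all features was not taken. Correlations between arrays over all features were 0.986 to 0.991 in the anti-AL078604.2 arrays of MDA-MB-468 and 0.99 to 0.991 in their control arrays. In the SKBR3 groups they were 0.985 to 0.987. Where the spread of the members comes from was not tested.

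**Figure D2:**
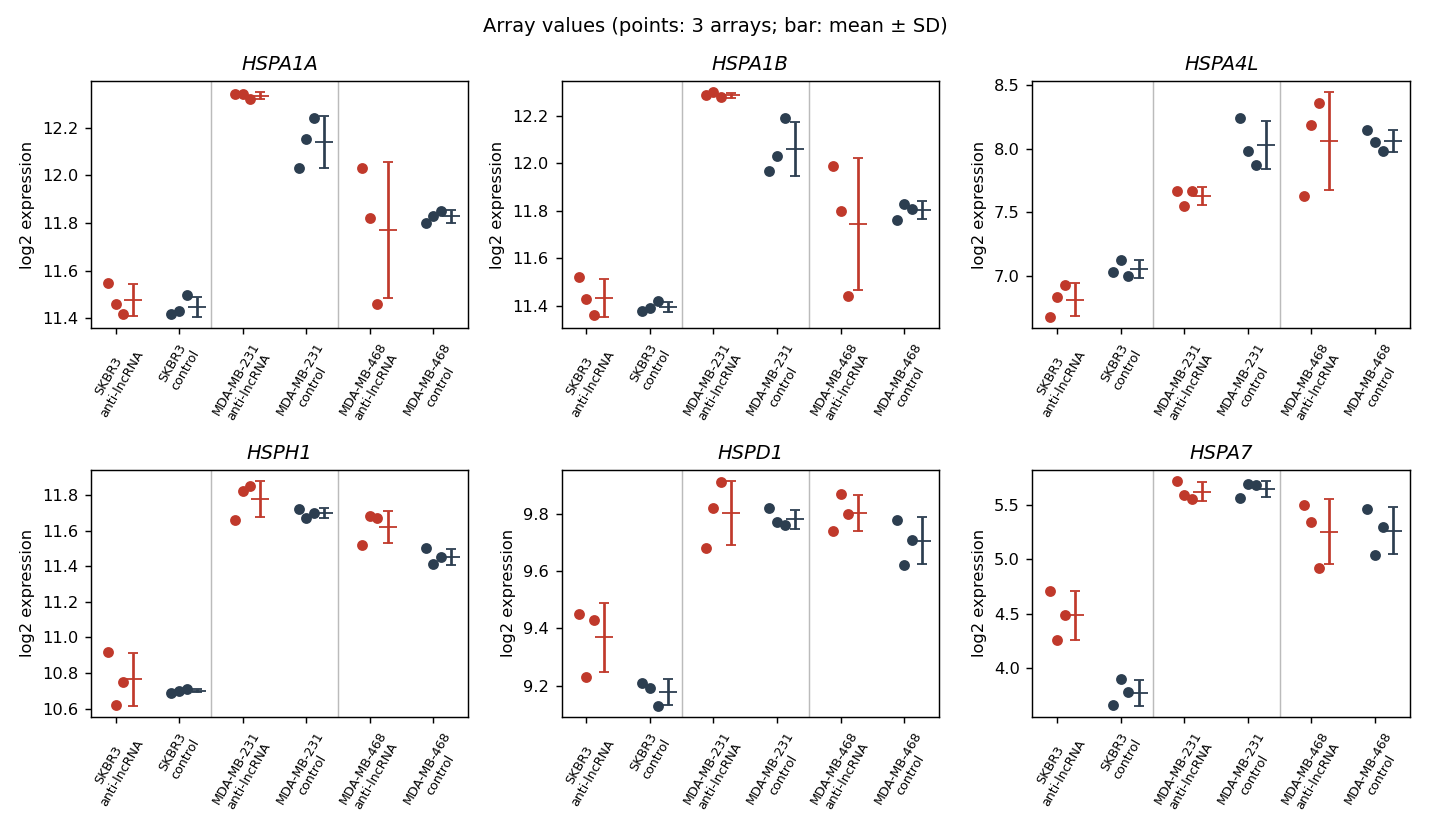
Log2 expression of 6 heat-inducible genes in each of the 18 arrays, by line, with anti-lncRNA ASO groups in red left of control ASO groups in dark blue; points are arrays and bars the mean ± SD of 3 arrays. HSPA1A and HSPA1B are tight in the anti-AL078604.2 arrays of MDA-MB-231 (SD 0.0139 for HSPA1A) and spread in those of MDA-MB-468 (11.46 to 12.03 for HSPA1A).

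Among the remaining inducible members, HSPD1 differed by 0.097 log2 (95% interval -0.053 to 0.25) in the arrays labelled MDA-MB-468 and HSPA7 by -0.0094 (-0.34 to 0.32). HSPA6 was not tested there. It measured 4.62, 4.71 and 4.97 in anti-AL078604.2 arrays, against 4.46, 4.46 and 4.60 in control arrays, without overlap but below the median of all features in both groups. HSPA9 differed by -0.047 (-0.15 to 0.058) and HSPA14 by 0.14 (-0.042 to 0.32). The 7 other tested genes ran from -0.37 (HSPA12B) to 0.22 (HSPA2).

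The untested members stayed low and overlapped between groups everywhere except for HSPA6 in MDA-MB-468. HSPB8, a small heat shock protein that works with BAG3 in autophagy of damaged proteins, averaged 3.34, 4.73 and 4.50 log2 in the anti-lncRNA arrays of SKBR3, MDA-MB-231 and MDA-MB-468, against 3.36, 4.68 and 4.62 in their control arrays. HSPB3 averaged 2.70, 4.18 and 3.74 in the anti-lncRNA arrays and 2.92, 4.30 and 3.78 in the control arrays in the same order of lines. HSPA6 averaged 4.95 in the anti-AL078604.2 arrays of MDA-MB-231, against 5.15 in control arrays. The largest difference among the untested members was that of DNAJC27-AS1 in SKBR3, which averaged 4.53 in anti-LINC01269 arrays and 4.12 in control arrays.

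**Figure D3:**
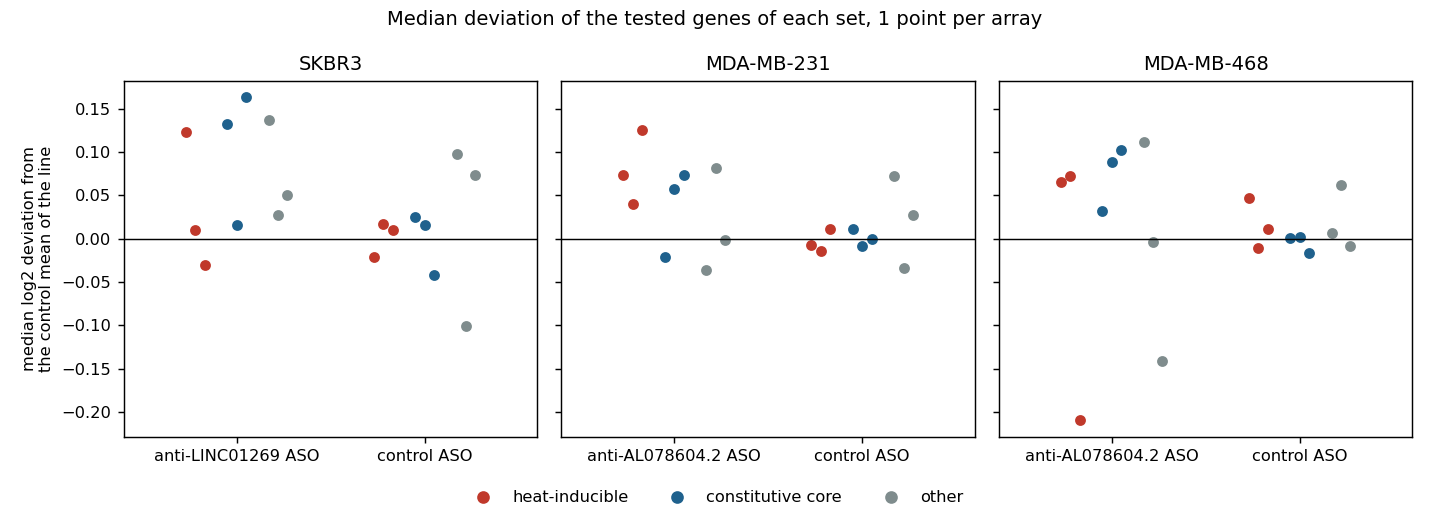
Median log2 deviation from the control mean of the line over the tested genes of each set (7 heat-inducible, 3 constitutive core, 7 other), 1 point per array, with anti-lncRNA ASO arrays left of control ASO arrays. In MDA-MB-468, anti-AL078604.2 replicate 3 is at -0.21 for the heat-inducible genes, while replicates 1 and 2 are at 0.066 and 0.072.

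Taken array by array, the heat-inducible and constitutive sets did not separate the groups in any line, apart from the inducible set in MDA-MB-231 and the constitutive set in MDA-MB-468. For each array, the median deviation of a set's tested genes from the control mean of the line was taken. In MDA-MB-231 it was 0.074, 0.040 and 0.13 log2 for the 7 inducible genes in anti-AL078604.2 arrays, against -0.0077, -0.014 and 0.011 in control arrays. In MDA-MB-468 it was 0.066, 0.072 and -0.21 for the inducible genes in anti-AL078604.2 arrays, against 0.047, -0.011 and 0.011 in control arrays. The constitutive genes of MDA-MB-468 were at 0.032, 0.088 and 0.10 in anti-AL078604.2 arrays, against 0.00033, 0.0015 and -0.017 in control arrays. In SKBR3 the inducible genes were at 0.12, 0.0096 and -0.030 in anti-LINC01269 arrays, against -0.022, 0.018 and 0.010 in control arrays. These medians rest on few genes chosen with earlier results known, and no test is given for them. HSPA1A and HSPA1B, close copies, enter separately among the 7 inducible genes. Deviations are from the control mean, which keeps control arrays near 0. How often other sets of features separate in this way was not tested.

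**Figure D4:**
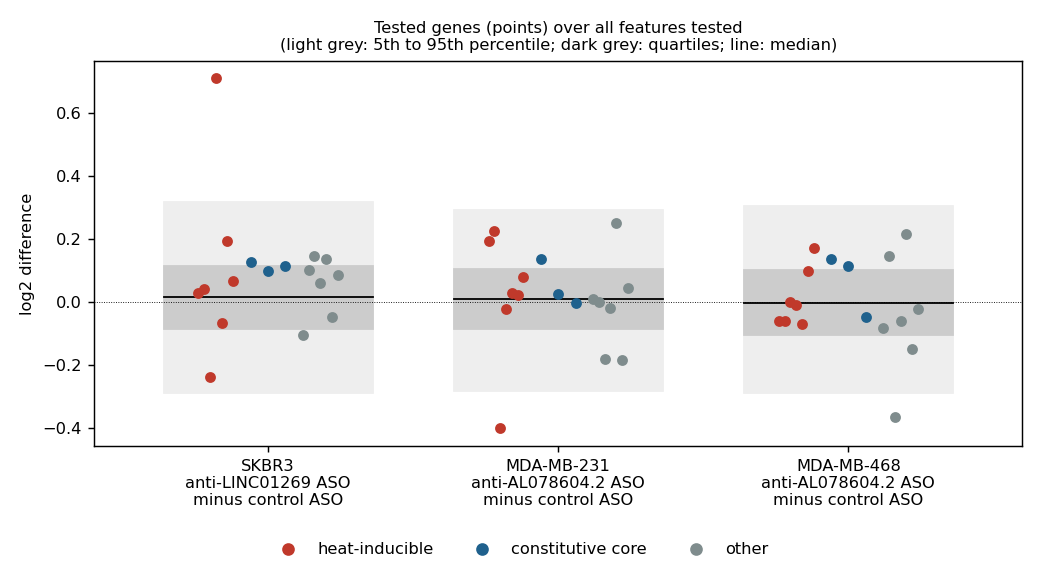
Log2 difference of each tested gene (points, by set) over the distribution of all 29855 features tested, by comparison; the y axis is in log2 units and 3 arrays per group were compared. HSPA7 in SKBR3 (0.71), HSPA4L in MDA-MB-231 (-0.40) and HSPA12B in MDA-MB-468 (-0.37) lie outside the 5th to 95th percentile band, and all other tested genes lie within it.

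The anti-AL078604.2 ASO was given to both triple-negative lines, so its effects were compared, each against the control of its line. Knockdown was not analysed, so unequal knockdown or scaling cannot be told apart from an unequal response. The difference between the effects (MDA-MB-231 minus MDA-MB-468) passed for 0 of 17 members and for 0% of all features by limma, and 1 member, HSPA1B, had an unadjusted p under 0.05 with a positive difference (2.36% of all features) and 0 with a negative one (1.81%). It was 0.28 log2 for HSPA1B (SE 0.134, 95% interval 0.00007 to 0.57, adjusted p = 0.998) and 0.25 for HSPA1A (SE 0.135, -0.033 to 0.54, adjusted p = 0.998). For HSPA4L it was -0.40 (SE 0.202, -0.83 to 0.027, adjusted p = 0.998). The interval of HSPA4L reaches beyond a 1.5-fold difference, as does that of HSPA12B (0.18, -0.29 to 0.66). The other 15 lie within it (88.2%, against 63.4% of all features, which were not matched for level). Effects in the 2 lines had the same sign above 0 for 6 members (35.3%, against 30.5% of all features) and below 0 for 6 (35.3%, against 28.5%). Some of these signs rest on values next to 0. These were HSPA12A (0.00073) and HSPA9 (-0.0034) in MDA-MB-231, and HSPA4L (-0.00047) and HSPA7 (-0.00935) in MDA-MB-468.

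Across all 3 comparisons, which share no arrays, 6 of 17 members were above 0 each time (35.3%, against 17.8% of all features) and 2 were below 0 each time (11.8%, against 14.8%). Those above were HSPD1, HSPH1, HSPA4, HSPA14, HSPA2 and HSPA12A, and those below were HSPA4L and HSPB2-C11orf52. HSPA14 gave 0.13 in SKBR3, 0.13 in MDA-MB-231 and 0.14 in MDA-MB-468, and with 1 array left out these ran from 0.061 to 0.20, from 0.088 to 0.17 and from 0.065 to 0.20. HSPA2 gave 0.14, 0.25 and 0.22 in the same order, and none of these passed. The HSPA12A values included 0.00073 in MDA-MB-231, and that of HSPA4L in MDA-MB-468 was -0.00047, so their signs there rest on values next to 0. With 1 array left out, HSPD1 (-0.031) and HSPA4 (-0.00043) in MDA-MB-231 and HSPH1 (-0.012) in SKBR3 also reached values below 0.

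Levels in the lines were compared as percentiles among all features of an array, as a description. HSPB1 stood at 99.6, 99.7 and 99.6 in control arrays labelled SKBR3, MDA-MB-231 and MDA-MB-468, HSPA1A at 99.4, 99.3 and 99.2, and HSPA9 at 99.2, 99.3 and 99.4. These values lie at the top of the scale, where a percentile can hardly differ between lines. HSPA4 stood at 95.3, 97.1 and 97.1, with control arrays of SKBR3 between 95.2 and 95.5. HSPA14 stood at 85.8, 86.1 and 89.8, and its MDA-MB-468 control arrays (89.4 to 90.1) did not overlap those of SKBR3 (85.5 to 86.4) or MDA-MB-231 (85.5 to 86.6). HSPA7 stood at 35.5 in SKBR3 control arrays (33.3 to 38), below 54.7 in MDA-MB-231 (53 to 55.6) and 50.8 in MDA-MB-468 (46.1 to 54.7). Line and scaling cannot be told apart in these values.

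Other genes of the heat shock pathway gave no call either. Of 54 listed genes that are no members, 24 were named and 23 tested, and in each comparison 0 passed in either direction. The share of all features tested that passed was 0% in SKBR3, 0.171% in MDA-MB-231 and 0.0067% in MDA-MB-468. The median difference of the 23 genes was 0.068 log2 in SKBR3, 0.023 in MDA-MB-231 and 0.0093 in MDA-MB-468. Over all features tested it was 0.014, 0.010 and -0.0035 in the same order. HSF1, the master regulator of the heat shock response, differed by 0.14 in SKBR3 (limma adjusted p = 0.507), 0.016 in MDA-MB-231 (0.972) and 0.031 in MDA-MB-468 (0.916). BAG3, an HSF1 target and co-chaperone of HSPB8 and Hsp70, differed by 0.21 in SKBR3 (limma adjusted p = 0.489), 0.22 in MDA-MB-231 (0.399) and -0.013 in MDA-MB-468 (0.98).

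Among the 10 tested HSP90 co-chaperones, FKBP5, an immunophilin of steroid receptor complexes, and PPID, a cyclophilin of the same complexes, had the smallest p-values in MDA-MB-231. FKBP5 was at -0.37 log2 in MDA-MB-231 (limma adjusted p = 0.277) and -0.31 in MDA-MB-468 (0.385), without overlap between groups in either line. PPID was at 0.39 in MDA-MB-231 (0.277), where its groups overlapped, and at 0.34 in MDA-MB-468 (0.347), where they did not. TRAP1, the mitochondrial HSP90, had the smallest p-value of the pathway in MDA-MB-468, where it was at -0.44 (SE 0.0941, adjusted p = 0.159) without overlap, beside -0.25 in MDA-MB-231 (0.361) and 0.13 in SKBR3 (0.721). Of 5 listed ER and mitochondrial genes it was the only one named. MRPL18, a protein of the mitochondrial ribosome and the first of the listed HSF1 targets by p in MDA-MB-468, was at -0.20 there (limma adjusted p = 0.278) and -0.11 in MDA-MB-231 (0.61), both without overlap, and at 0.044 in SKBR3 (0.869). TOMM34, a co-chaperone of mitochondrial import and the first of the HSP90 co-chaperones by p in SKBR3, was at 0.17 there (0.507), 0.11 in MDA-MB-231 (0.731) and 0.015 in MDA-MB-468 (0.97). IER5, an HSF1 target and regulator, was at 0.19 in MDA-MB-231 (0.745) and -0.34 in MDA-MB-468 (0.385), and the difference between these effects was 0.53 (SE 0.188, adjusted p = 0.998). None of the 8 chaperonin subunits listed had a named feature.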

How the data were processed

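The submitters' processing notes name Transcriptome Analysis Console; for its version, summarization, normalization and genome build the entry is "not given in the sources used here". Values deposited by the authors, 0.41 to 13.84, were read as log2 expression from their range. Features were named from GEO's platform annotation, and gene positions and promoters came from RefSeq (GRCh38.p14). Members and lists were chosen with earlier results of these data known. Tests covered features that averaged above the group's median feature in 1 or more of 6 groups (29855 of 53617 features). limma 3.58.1 in R 4.3.3 fitted a group-means model to all 18 arrays (12 residual and 4.33 prior degrees of freedom, intensity trend), with two-sided p-values adjusted by Benjamini-Hochberg over all features tested. The procedure was tested on simulated data. Named genes were all tested heat-inducible and constitutive members, and the 6 highest and 6 lowest members whose groups did not overlap; others named were chosen after their values were seen. From the pathway lists, some of the 4 genes with the smallest p per list were named. Same-numbered arrays did not deviate together (correlations -0.12 to 0.10), so no pairing was used. The number of arrays limits the precision. Alternatives were fits of the line's own arrays, no trend, a robust prior, no filter or a stricter one, quantile normalization within line, the mean of a gene's features, a replicate block and leaving out each array.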

Additional observations from a re-analysis of the deposited data

How the results depend on the processing

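No member passed in any comparison under the 8 alternatives that kept all arrays (a fit of the line's own arrays, no trend, a robust prior, no filter, a stricter filter, quantile normalization within line, the mean of a gene's features, and the replicate block). Leaving out 1 array gave 0 to 1 calls in SKBR3 and 0 in the other 3 comparisons, the difference between lines included. The 1 was HSPA7 (0.82 log2, limma adjusted p = 0.0343) without anti-LINC01269 replicate 2. Of all features tested, 0% to 0.774% passed under the omissions in SKBR3 and 0% to 0.0402% in MDA-MB-468. In MDA-MB-231, 1.78% (532 features) passed without anti-AL078604.2 replicate 1 and 0% under each other omission. For the difference between lines this share was not taken. With 1 array left out, the median of the tested members ran from 0.059 to 0.13 log2 in SKBR3, from 0.0073 to 0.058 in MDA-MB-231 and from -0.087 to 0.065 in MDA-MB-468. That of the heat-inducible members ran from -0.010 to 0.071 in SKBR3, from 0.020 to 0.081 in MDA-MB-231 and from -0.13 to 0.094 in MDA-MB-468. With the replicate block, 0 members passed and the SKBR3 median stayed at 0.085; the block changed no call. Of 431 values of single members under an alternative, 430 kept their side of the threshold, the exception being HSPA7 as above. The signs of both MDA-MB-468 medians and of the SKBR3 heat-inducible median thus depended on 1 array, and the SKBR3 heat-inducible median also turned to -0.011 after quantile normalization within line; the cause was not tested. Features below the array's median, such as HSPA6, HSPB8 and, in SKBR3, HSPA7, are not shown to be above background.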
